A study of Mus musculus with 18 samples.

Results

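The transcripts described here are those of T cells, cytotoxic lymphocytes and the cytokine interferon-gamma, as they were measured in sorted mouse colon epithelial cells. The 10 genes, chosen by name, were Cd3d, Cd3e, Cd3g, Cd8a, Gzma, Gzmb, Nkg7, Klrd1, Itgae and Ifng. Every probe that the deposited table assigns to one of them was taken, which gave 17 of 45281 probes, for 9 of the 10 genes. Gzma had no probe under that symbol. The rule names genes and uses no measured value, although the genes were picked with earlier results of these data known.

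Expression was read on Illumina MouseWG-6 bead arrays, whose probes are 50 bases long. The cells were sorted from the colon as positive for the epithelial adhesion molecule EpCAM and negative for CD45, CD3, F4/80 and other lineage markers, and came from wild-type mice (WT) or from mice without Mbd2, a reader of methylated CpG sites (Mbd2KO), both on the C57BL/6 background. The mice drank water with 2% dextran sulphate sodium (DSS), a polymer that damages the gut lining and causes colitis, for 6 days, or were left untreated (naive). Over all its experiments the study used mice of 8 to 22 weeks, with littermate controls housed together where possible. The loss of Mbd2 affects every cell of the animal, the epithelium and the lymphocytes included, and a replicate is made up of 1 to 5 mice by the series' design text and of 1 to 10 by the methods. By the methods the arrays came from 3 experiments, and the labels do not tie samples to them, so experiment could not be used as a batch. The groups Naive_WT, Naive_KO, DSS_WT and DSS_KO were read on 4, 4, 5 and 5 arrays. The labels do not say what the R in arrays 4R and 5R stands for, and the study counts as many biological replicates per genotype after DSS as there are arrays. Since 4R and 5R were closer to arrays 4 and 5 (SD of the log2 difference over probes 0.194 and 0.236) than any other arrays of their groups were to each other (0.334 to 0.482 and 0.287 to 0.419), each pair was treated as 1 sample and averaged, which left 4 samples a group. The question put to the data was which of the T cell, cytotoxic and Ifng transcripts could be read in these samples, and how they varied beside the response to interferon-gamma.

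Intraepithelial lymphocytes are T cells that live between the epithelial cells of the gut, and many of them carry CD8 and the integrin CD103, which holds them to E-cadherin on the epithelium. T cells carry the CD3 chains as the signalling part of their antigen receptor, and cytotoxic T and NK cells store granzymes and perforin in granules to kill target cells. Interferon-gamma, which T and NK cells release, acts on epithelial cells through its receptor and Jak kinases, and induces Irf1, Ciita, the MHC class II genes, the immunoproteasome and the chemokines Cxcl9 and Cxcl10. A sort that leaves out CD45 and CD3 positive cells is meant to remove lymphocytes.

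Probes that carry the results below are printed here as the deposited table gives them, 5′ to 3′, because a level is only that of these bases. They are those for Cd3d, Cd3g and Klrd1, which were tested, and the second of the 2 Ifng probes, which was not tested and is described by its detection alone. The tested Ifng probe, ILMN_2791459, is given by its position only.
Cd3d ILMN_2697415: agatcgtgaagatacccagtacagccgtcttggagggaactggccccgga
Cd3g ILMN_2722784: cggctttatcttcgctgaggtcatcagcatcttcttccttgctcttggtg
Klrd1 ILMN_1255860: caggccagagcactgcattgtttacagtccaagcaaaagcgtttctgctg
Ifng ILMN_2685712: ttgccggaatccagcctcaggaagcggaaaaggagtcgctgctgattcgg

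Itgae had 6 probes, and 4 of them form 2 pairs that overlap almost fully. In the sequences below, capitals mark the 49 bases that the members of a pair share.
Itgae ILMN_1217629: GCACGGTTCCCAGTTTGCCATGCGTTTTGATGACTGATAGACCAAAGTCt
Itgae ILMN_2699898: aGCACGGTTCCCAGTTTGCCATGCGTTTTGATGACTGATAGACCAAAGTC
Itgae ILMN_2628899: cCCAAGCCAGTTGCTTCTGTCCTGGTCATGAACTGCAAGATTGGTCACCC
Itgae ILMN_2628900: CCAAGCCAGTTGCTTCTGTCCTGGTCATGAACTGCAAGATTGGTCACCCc
The members of a pair read the same stretch of RNA and are not independent measurements. The deposited table, which does not name its genome build, puts Cd3g at chr9:44781595-44781644 on the minus strand, the tested Ifng probe at chr10:117848690-117848739 on the plus strand and the brightest Itgae probe at chr11:72960880-72960929 on the plus strand. It gives no position for Cd3d, Klrd1 or the second Ifng probe, and the place of a probe within its transcript (exon or UTR) was not determined here.

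Detection was low for all members other than Itgae. A probe counts as detected on an array when its detection p, the share of that array's negative control probes that were brighter, is under 0.05. Since 5.02% of the negative controls themselves pass on each array, that is the level of chance. The 11 probes of the other 8 genes were detected in 35 of 198 pairs of probe and array (17.7%), against 43.9% over all probes. In the naive groups they were detected in 2 of 88 pairs (2.27%), which is not above the level of the negative controls, and in the DSS groups in 33 of 110 pairs (30.0%). At the stricter detection p of 0.01 these counts were 0 and 7.

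Split by genotype, the 11 probes were detected in 1 of 44 pairs in Naive_WT, 1 of 44 in Naive_KO, 19 of 55 in DSS_WT (34.5%) and 14 of 55 in DSS_KO (25.5%). For all probes on the arrays the shares hardly moved, at 43.7% in the naive and 44.0% in the DSS arrays. Arrays within a group share genes and pools, so these shares are a description without a test. A probe below detection gives only an upper limit to its level, and no sample of sorted T cells is at hand here to show how bright these probes can be.

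**Figure D1:**
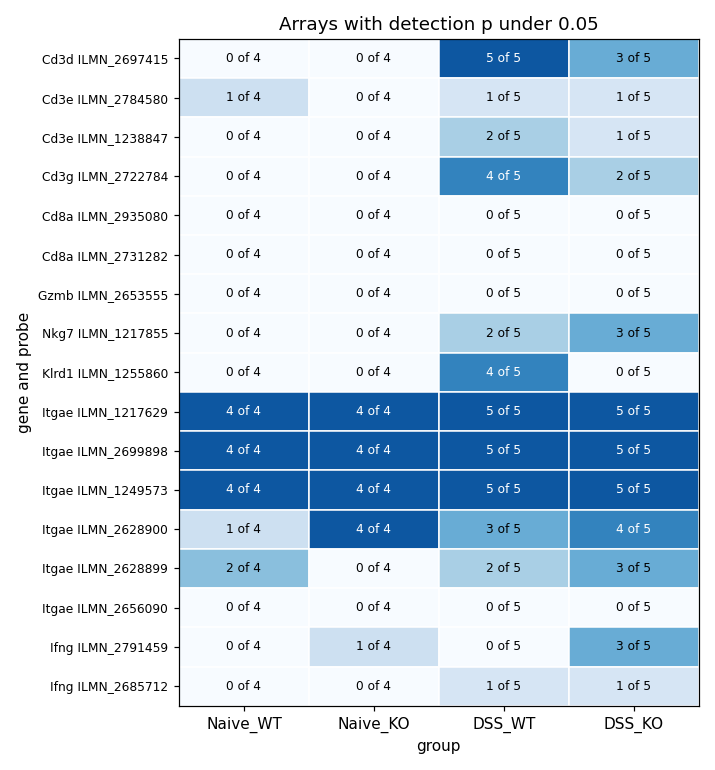
Number of arrays with a detection p under 0.05 for each of the 17 member probes (rows) in the 4 groups (columns), darker for a larger share of the group's arrays. Of the Itgae probes 3 were detected on all 18 arrays, Cd3d, Cd3g, Nkg7 and Klrd1 only on arrays of DSS samples, and Cd8a and Gzmb on none.

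The defining transcripts of cytotoxic CD8 T cells were not read. Cd8a, the alpha chain of the CD8 co-receptor, was detected on 0 of 18 arrays by either of its probes, with lowest detection p of 0.178 and 0.327. Gzmb, the granzyme of activated killer cells, was detected on 0 of 18 arrays, with a lowest detection p of 0.115. Cd3e, the CD3 chain most used to mark T cells, was detected on 3 of 18 arrays by each of its 2 probes, of which 1 array in all was naive. These probes did not reach the 4 arrays asked for and were not tested, as was 1 probe each of Itgae and Ifng. In all, 10 probes of 6 genes were tested. All values below are log2 of the background-corrected signal plus 16, so that a probe without signal stands near 4 and changes of dim probes are compressed.

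Of the CD3 chains of the T cell receptor, Cd3g and Cd3d passed the looser threshold with DSS in WT, none passed in Mbd2KO, and Cd3e was not tested. Cd3g read 4.50, 4.74, 4.48 and 4.49 in Naive_WT, 4.60, 4.69, 4.47 and 4.65 in Naive_KO, 4.92, 5.52, 5.20 and 5.27 in DSS_WT, and 4.97, 4.81, 4.58 and 4.74 in DSS_KO. The 4 DSS_WT samples all lay above the 8 naive samples, while DSS_KO overlapped with each other group. The probe was detected on 0, 0, 4 and 2 arrays of these groups. In pools of sorted cells, more T cells and more RNA per T cell cannot be told apart.

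Cd3g rose with DSS in WT by 0.67 (SE 0.13, n = 4 against 4, limma adjusted p = 0.00355), and kept an adjusted p under 0.05 in all 23 alternatives. In Mbd2KO the difference was 0.17 (95% interval -0.10 to 0.44, limma adjusted p = 0.441). With DSS it was lower in Mbd2KO than in WT by the looser threshold, with a log2 difference of -0.45 (SE 0.13, limma adjusted p = 0.0490), which passed in only 4 of 23 alternatives (adjusted p 0.0198 to 0.170). Without DSS_WT sample 2 it was -0.35. The interaction, which tests whether the genotypes differ in their answer to DSS, was -0.50 (unadjusted p = 0.0127, limma adjusted p = 0.318) and did not pass.

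Cd3d read 4.33, 4.80, 4.75 and 4.66 in Naive_WT and 4.91, 4.51, 4.45 and 4.67 in Naive_KO. With DSS it read 5.00, 5.23, 5.22 and 5.31 in WT and 5.17, 5.12, 5.40 and 4.77 in Mbd2KO. All DSS_WT samples stood above all naive samples, and in DSS_KO the samples 5, 6 and 7 did so as well, while sample 8 was inside the naive range. The probe was detected on 0 of 8 naive arrays, 5 of 5 DSS_WT and 3 of 5 DSS_KO arrays.

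Cd3d rose with DSS in WT by 0.56 (SE 0.15, limma adjusted p = 0.0253), which passed in 17 of 23 alternatives (adjusted p 0.0124 to 0.0769). In Mbd2KO the difference with DSS was 0.48 (SE 0.15, limma adjusted p = 0.0517), just outside the threshold. It passed in 5 of 23 alternatives (adjusted p 0.0272 to 0.132), and without DSS_KO sample 8 it was 0.59. Between the genotypes Cd3d differed by 0.00 without DSS (95% interval -0.31 to 0.31) and by -0.08 with it (-0.39 to 0.24). The 2 intervals leave room for differences of up to 0.39 on this scale.

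Cd3d and Cd3g passed the filter of 4 detected arrays through DSS arrays alone. The adjusted p of their rise with DSS is therefore no independent support for it. Because Cd3d and Cd3g were not detected on any naive array, their fold changes can also be given as lower bounds against the dimmest detected probe of each naive array. Set so, signal plus 16 was at least 1.26-fold higher for Cd3g and at least 1.22-fold higher for Cd3d in DSS_WT than in Naive_WT. For Cd3d in DSS_KO against Naive_KO the log2 bound was 0.13. Differences given here for a probe that no array of a group detected are those of the measured values, which have no reliable size below background. For Cd3e, the group means ran from 4.65 to 4.80 by 1 probe and from 4.39 to 4.79 by the other. No group of the first probe stood apart from the rest, and by the second both DSS groups lay above all Naive_KO samples but not above all Naive_WT samples.

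**Figure D2:**
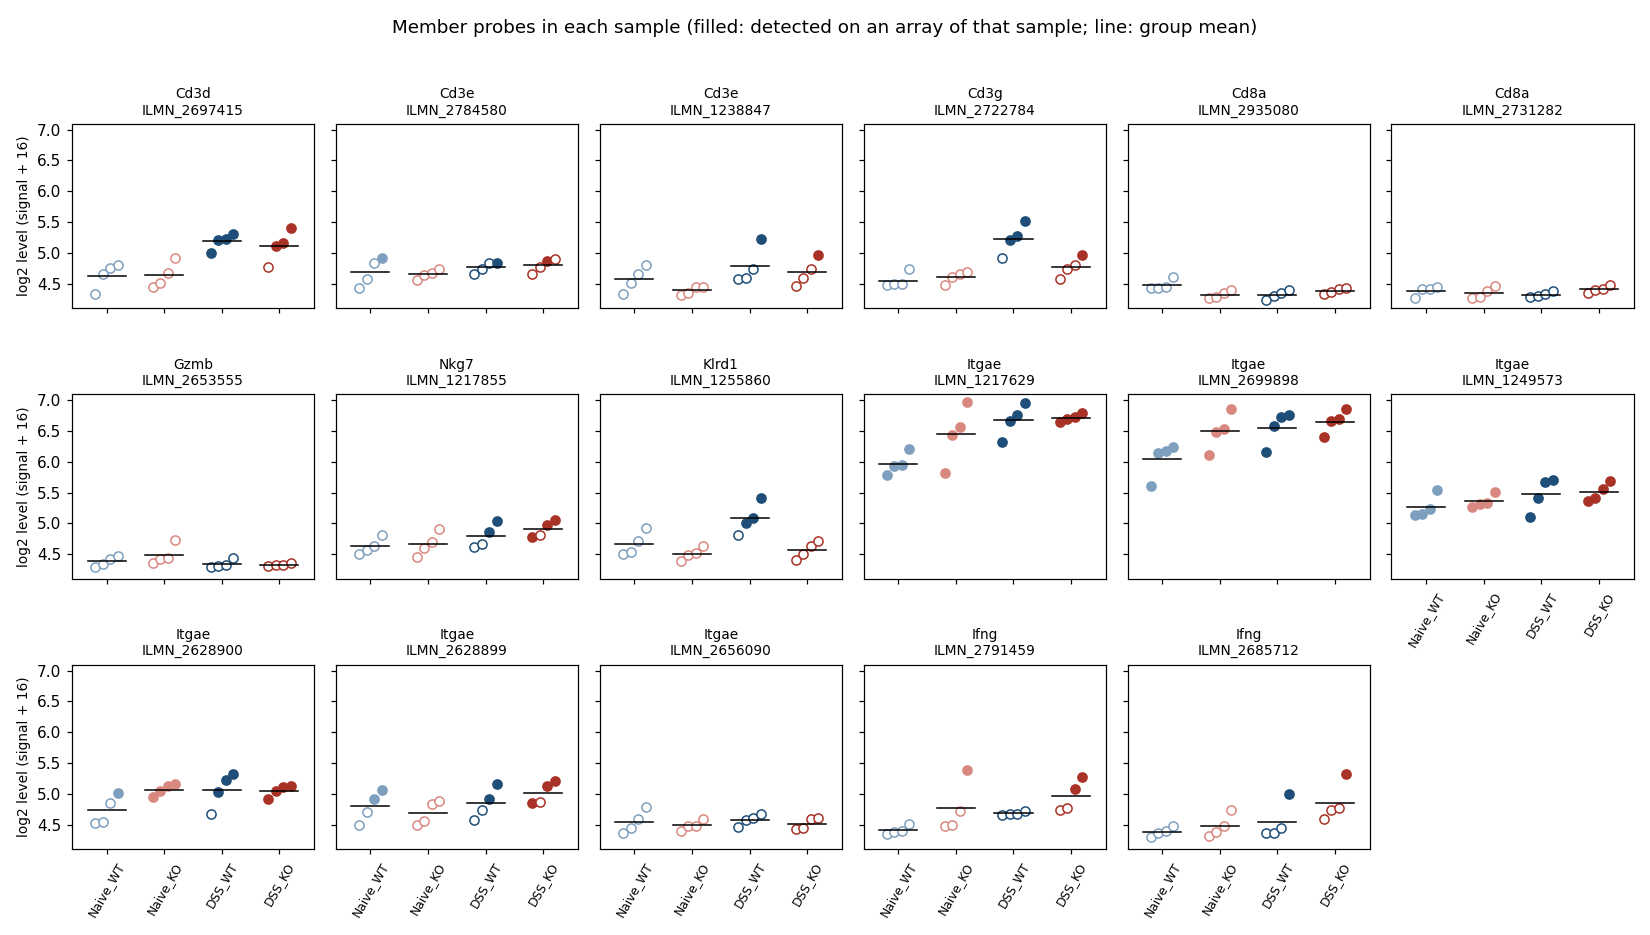
Log2 level (background-corrected signal plus 16) of each member probe in each of the 16 samples by group, filled where the probe was detected on an array of that sample, with the group mean as a line. Cd3d and Cd3g stand higher in DSS_WT than in the naive groups, Klrd1 stands highest in DSS_WT, and Cd8a and Gzmb lie between 4.24 and 4.73 in all samples.

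Among the NK and cytotoxic members, Klrd1 was detected in 1 group alone. Klrd1, which codes for CD94, a receptor chain of NK and some CD8 T cells, read 4.93, 4.71, 4.50 and 4.54 in Naive_WT, 4.39, 4.52, 4.49 and 4.63 in Naive_KO, 4.82, 5.01, 5.41 and 5.09 in DSS_WT, and 4.71, 4.64, 4.40 and 4.50 in DSS_KO. It was detected on 4 of 5 DSS_WT arrays and on 0 arrays of the other groups. The 4 DSS_WT samples lay above the 4 DSS_KO samples, and sample 9 of Naive_WT reached into the DSS_WT range.

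Klrd1 was lower in Mbd2KO than in WT during colitis, with a log2 difference of -0.52 (SE 0.13, limma adjusted p = 0.0301), that is, at least 1.09-fold on the scale of signal plus 16 against the dimmest detected probe. Klrd1 met the filter of 4 detected arrays through DSS_WT alone, and arrays 4 and 4R of the same sample were among them. A probe admitted through its high group favours this direction, so the adjusted p is no independent support for it. The difference kept an adjusted p under 0.05 in 14 of 23 alternatives (0.0141 to 0.0842) and its sign in all of them. It missed the threshold, for example, without DSS_WT sample 3, where it was -0.41. DSS against naive gave 0.42 in WT (SE 0.13, limma adjusted p = 0.0565) and 0.05 in Mbd2KO (95% interval -0.23 to 0.33), and the interaction was -0.36 (SE 0.19, limma adjusted p = 0.520).

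Nkg7, a protein of cytotoxic granule membranes, read 4.50 to 4.82 in Naive_WT, 4.46 to 4.91 in Naive_KO, 4.61 to 5.05 in DSS_WT and 4.77 to 5.06 in DSS_KO. The groups overlapped throughout, although the probe was detected on 2 and 3 of the 5 DSS arrays of each genotype and on no naive array. Its largest difference was 0.24 with DSS in Mbd2KO (95% interval -0.03 to 0.51, limma adjusted p = 0.254).

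Ifng itself was close to background in every group. Its tested probe read 4.39, 4.38, 4.51 and 4.35 in Naive_WT, 5.38, 4.50, 4.48 and 4.73 in Naive_KO, 4.65, 4.68, 4.73 and 4.68 in DSS_WT, and 5.08, 4.77, 4.74 and 5.27 in DSS_KO. Naive_KO sample 13 was the highest of all 16 samples, and the 4 DSS_KO samples lay above the 4 DSS_WT samples by a narrow margin. The probe was detected on 0, 1, 0 and 3 arrays of the 4 groups, at detection p of 0.0182 in sample 13, 0.0139 in sample 8 and 0.0449 and 0.0214 on the arrays 5 and 5R. None of these passed the stricter detection p of 0.01.

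The differences in Ifng were 0.36 between the genotypes without DSS (95% interval 0.01 to 0.72, limma adjusted p = 0.213) and 0.28 with DSS (-0.08 to 0.64, limma adjusted p = 0.354). DSS against naive gave 0.28 in WT (-0.08 to 0.63) and 0.19 in Mbd2KO (-0.16 to 0.55). None passed in any alternative. Without sample 13 the difference between the naive genotypes was 0.16 (adjusted p = 0.523). The second Ifng probe, which was not tested, was detected only on the arrays of DSS_WT sample 3 (4.99) and of DSS_KO sample 8 (5.32), and ran from 4.30 to 4.76 in the other samples. DSS_KO sample 8 was thus the only sample in which both Ifng probes were detected.

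Itgae was the only member that was detected in every sample. It codes for CD103, the integrin alpha E chain, which intraepithelial lymphocytes carry and some dendritic cells carry as well. Its brightest probe, ILMN_1217629, read 5.95, 5.93, 6.21 and 5.78 in Naive_WT, 6.43, 6.57, 6.96 and 5.82 in Naive_KO, 6.32, 6.76, 6.67 and 6.95 in DSS_WT, and 6.79, 6.69, 6.72 and 6.64 in DSS_KO. Naive_WT lay below both DSS groups without overlap, and 3 of the 4 Naive_KO samples stood above all Naive_WT samples.

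This probe rose with DSS in WT by 0.71 (SE 0.19, limma adjusted p = 0.0263), and passed in 18 of 24 alternatives (adjusted p 0.00372 to 0.0871). Its near-identical partner ILMN_2699898 gave 0.51 (SE 0.18, limma adjusted p = 0.0821) and did not pass, although 49 of 50 bases are the same. The remaining 3 tested probes gave 0.21, 0.33 and 0.05, also without passing.

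Between the naive genotypes ILMN_1217629 differed by 0.48 (SE 0.19, unadjusted p = 0.0219, limma adjusted p = 0.145), and its partner by 0.45 (adjusted p = 0.148). Without Naive_KO sample 16, the lowest of its group, the first value was 0.69 (adjusted p = 0.0179). With DSS, Mbd2KO and WT differed by 0.04 (95% interval -0.36 to 0.44). The members of the second pair, ILMN_2628900 and ILMN_2628899, were detected on 12 and 7 of 18 arrays, and on 4 and 0 of the 4 Naive_KO arrays. Their differences between the naive genotypes were 0.33 and -0.10, with adjusted p of 0.178 and 0.732, so probes that share all but 1 base gave different signs near background.

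Over the 10 tested member probes, none was called by limma in any of the 5 comparisons, where called means an adjusted p under 0.01 and an absolute log2 fold change of 1 or more. The share of all 21938 tested probes that was called was 0.862% for DSS_KO against DSS_WT, 0.656% for Naive_KO against Naive_WT, 1.74% for DSS_WT against Naive_WT, 1.72% for DSS_KO against Naive_KO and 0% for the interaction, so a count of 0 among 10 is near the background throughout. The unadjusted p was under 0.05 for 2, 4, 6, 1 and 1 member probes in the same order, against 22.2%, 22.8%, 26.3%, 24.5% and 10.7% of all tested probes. The count of called member probes stayed at 0 in every alternative.

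At an adjusted p under 0.05 without a limit on size, 2 member probes were lower in DSS_KO than in DSS_WT (Klrd1 and Cd3g), against 3.17% of all tested probes lower and 5.63% changed in either direction. In DSS_WT against Naive_WT 3 were higher (Cd3g, Cd3d and 1 Itgae probe), against 5.71% of all tested probes higher and 10.5% in either direction. Klrd1 was detected only on DSS_WT arrays, and Cd3g and Cd3d only on DSS arrays. The filter thus admitted Klrd1, Cd3g and Cd3d through groups where they are high, and the shares of all probes do not allow for that. No member probe passed in Naive_KO against Naive_WT (5.19% of all tested probes) or in DSS_KO against Naive_KO (9.42%). All 10 member probes had a log2 difference above 0 for DSS in WT, with a median of 0.37 where the median of all tested probes was -0.01, but 5 of the 10 read the same gene.

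Groups did not overlap for 2 of the 10 probes in DSS_KO against DSS_WT, Klrd1 and Ifng, in opposite directions, against 14.7% of all tested probes. Klrd1 passed the filter through DSS_WT arrays alone, and Ifng through Mbd2KO arrays alone. In DSS_WT against Naive_WT the count was 4 of 10 (Cd3d, Cd3g, 1 Itgae probe and Ifng), all higher, against 17.0% of all tested probes and 8.87% in that direction. The Ifng probe was detected on no array of DSS_WT or Naive_WT, so its separation lies below detection. In the other 2 comparisons the count was 0, against 12.3% for Naive_KO against Naive_WT and 15.9% for DSS_KO against Naive_KO.

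Genes that interferon-gamma induces were called higher in Mbd2KO than in WT and higher with DSS than without in the same samples. Of 38 such genes, 34 were tested. In Naive_KO 13 were called higher than in Naive_WT, against 0.656% of all tested probes called in either direction. In DSS_KO 11 were called higher than in DSS_WT, against 0.862%, and none was called lower in either comparison. With 1 sample left out these counts ran from 11 to 21 (21 without Naive_KO sample 16) and from 5 to 15 (5 without DSS_WT sample 2 or DSS_KO sample 5, 6 without DSS_KO sample 8, and 7 without DSS_WT sample 4 or DSS_KO sample 7). With arrays 4R and 5R kept as samples of their own, 17 were called in DSS_KO against DSS_WT. The median log2 difference of the list was 1.77 without DSS and 1.54 with it, where the median of all tested probes was -0.00 in both. For the 6 tested member genes, at their brightest probe, the medians were 0.04 and -0.02. With DSS, 11 response genes were called higher in WT and 4 in Mbd2KO, against 1.74% and 1.72% of all tested probes called in either direction. None was called lower, the medians were 1.37 and 0.94, and the medians of the 6 member genes were 0.49 and 0.22. Members and response were thus both higher with DSS in WT, where 3 member genes passed the looser threshold. The calls of response genes with DSS ran from 3 to 17 in WT when 1 sample was left out (3 to 7 without DSS_WT sample 1, 3 or 4 or Naive_WT sample 9, 10 or 12, and 17 without Naive_KO sample 13 or 16). In Mbd2KO they ran from 0 to 15 (0 without DSS_KO sample 5 or 8 or Naive_KO sample 14 or 16, 2 without DSS_KO sample 7, DSS_WT sample 4 or Naive_WT sample 9 or 10, and 15 without Naive_KO sample 13). With 4R and 5R kept as samples of their own they were 18 and 9. The lists were chosen with these data known, so their direction is no independent evidence.

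Ciita, the master regulator of MHC class II, was detected on 0 of 4 Naive_WT arrays, on 4 of 4 Naive_KO, on 4 of 5 DSS_WT and on 5 of 5 DSS_KO arrays. It gave 3.47 between the DSS groups (limma adjusted p = 0.000760), and without DSS signal plus 16 was at least 5.67-fold higher in Mbd2KO (measured log2 difference 2.95, adjusted p = 0.00131). Cd74, the invariant chain of MHC class II, gave 3.75 without and 2.52 with DSS, and H2-DMb1, a chain of the complex that loads peptides on class II, gave 4.11 and 3.64. Ido1, which breaks down tryptophan, gave 4.43 and 3.02. These 4 genes were called in both comparisons.

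Irf1, a transcription factor of the response, gave 0.83 without DSS (limma adjusted p = 0.0174) and 0.55 with it (0.0888) by its brightest probe. Its other 4 probes gave 1.12 to 1.29 without DSS, of which 2 passed the looser threshold, and 0.56 to 1.72 with it, of which 2 passed (1.72 and 1.65, adjusted p = 0.0435 and 0.0386), so the probes of Irf1 differ in size and call. The chemokine Cxcl9 gave 2.61 (limma adjusted p = 0.0175) without DSS and 1.92 (0.0620) with it, and Cxcl10 gave 0.96 (0.0219) and 0.50 (0.193). The second Cxcl10 probe gave 0.20 (0.634) and 0.53 (0.165), so its probes disagree without DSS. The largest difference of a tested Ifng probe under either condition was 0.36. Since the members are dim, their scale is compressed by the added 16, and sizes on it cannot be set directly against those of bright genes.

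**Figure D3:**
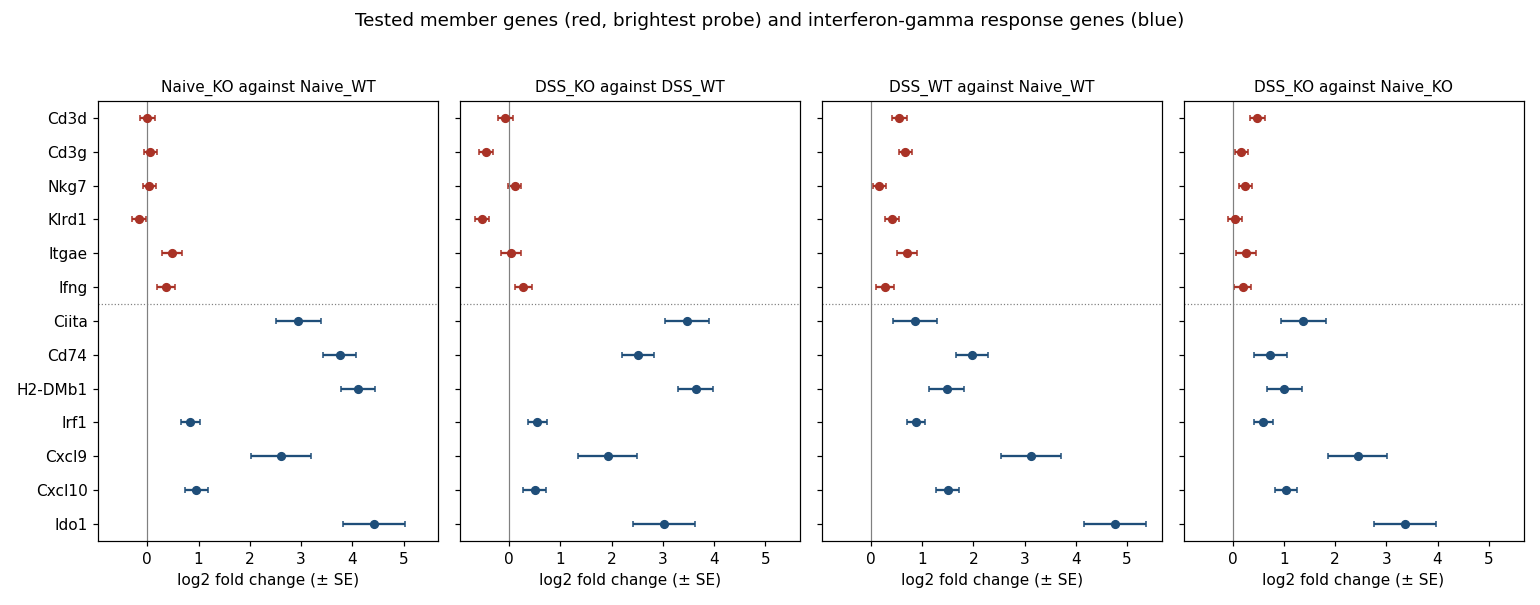
Log2 fold change with its standard error in 4 comparisons for the 6 tested member genes at their brightest probe (red) and for 7 genes that interferon-gamma induces (blue). The members lie between -0.52 and 0.71, and Ciita reaches 2.95 and 3.47 in the 2 comparisons of genotypes.

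Sample by sample, the member transcripts and the response did not run in the same order across the groups. The mean log2 level of the 9 member genes was 4.64 to 4.77 in Naive_WT, 4.72 to 4.93 in Naive_KO, 4.87 to 5.07 in DSS_WT and 4.91 to 5.01 in DSS_KO. The mean of the 38 response genes was 7.35 to 7.58, 8.40 to 9.89, 8.18 to 9.02 and 9.76 to 10.4. DSS_WT thus held the highest member means with response means below all DSS_KO samples, and the groups with the same treatment overlapped in their member means. The member mean includes Cd8a and Gzmb, which no array detected, and other genes near background. It can therefore move little on this scale, and the part of lymphocyte RNA in the response was not tested.

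Within Naive_KO the response was uneven, with means of 9.89, 8.69, 9.56 and 8.40 in samples 13, 14, 15 and 16. Sample 13, with the highest response, also had the highest Ifng value (5.38), the highest Cd3d value (4.91) and the highest member mean (4.93) of its group. Sample 15, with the second highest response, had the second highest member mean (4.78) and the highest Itgae value of its group (6.96), while its Ifng value of 4.48 was below detection and its Cd3d value of 4.45 was the lowest of the group. Sample 16, with the lowest response, also had the lowest Itgae value. Within this group the member means (4.93, 4.78, 4.72 and 4.72 in samples 13, 15, 14 and 16) ran in the order of the response for samples 13 and 15, while samples 14 and 16 could not be told apart, and 1 of 44 pairs of a probe other than Itgae and an array was detected in this group. In the same sample order, the mean log2 levels were 6.67, 6.44, 6.26 and 5.98 for 19 macrophage and monocyte genes and 6.09, 5.81, 5.81 and 5.63 for 22 pan-leukocyte genes. They were 5.22, 5.11, 5.09 and 4.98 for the 22 other T cell genes and 5.53, 5.39, 5.37 and 5.02 for 13 B and plasma cell genes. Sample 13 was highest and sample 16 lowest in these 4 lists. The order differed in the other 2 lymphocyte lists, with 4.92, 4.82, 4.86 and 4.79 for 32 other cytotoxic and NK genes, where sample 15 lay below sample 14, and 5.30, 5.08, 5.19 and 5.13 for 26 interferon-gamma inducing and homing genes, where sample 15 was lowest. The part of these lists in the response was not tested. With 4 samples in a group, no correlation was computed.

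**Figure D4:**
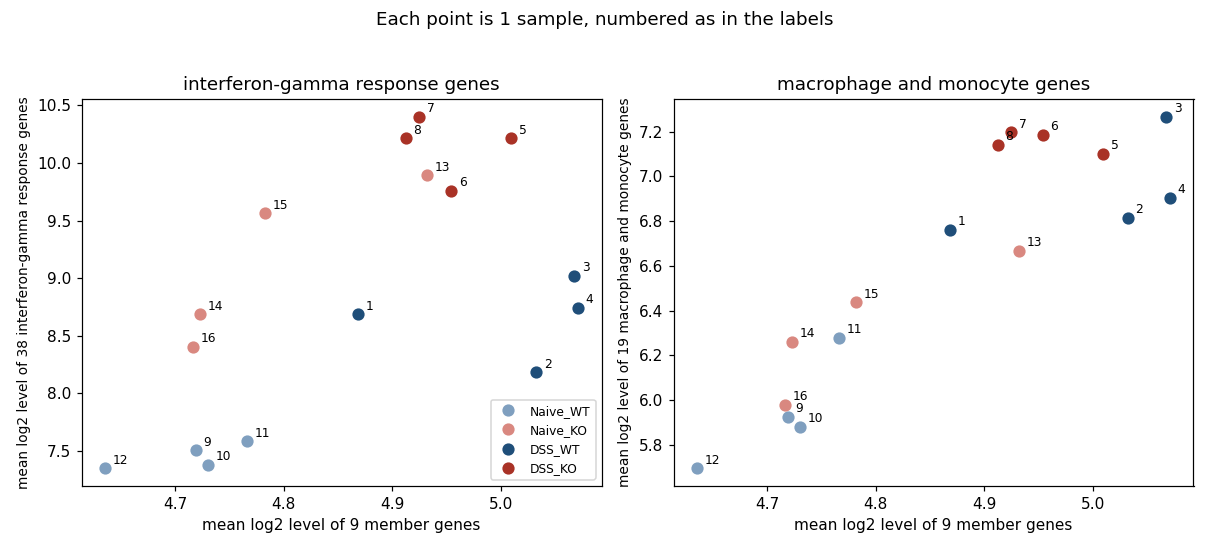
Mean log2 level of the 9 member genes (horizontal axis) against the mean of 38 interferon-gamma response genes (left) and of 19 macrophage and monocyte genes (right), 1 point for each of the 16 samples with its sample number. The response of DSS_KO (9.76 to 10.4) stands above that of DSS_WT (8.18 to 9.02) at like member means. Most of the member genes lie near background on a compressed scale, so like member means do not show a like content of lymphocyte RNA.

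Other transcripts of T cells gave a mixed picture. Of 22 further T cell receptor and signalling genes with a probe, 5 were detected on no array and 11 were tested. None was called in any comparison by limma, with 2, 1, 6, 5 and 1 at an unadjusted p under 0.05 for DSS_KO against DSS_WT, Naive_KO against Naive_WT, DSS_WT against Naive_WT, DSS_KO against Naive_KO and the interaction. In this order the shares of all tested probes were 22.2%, 22.8%, 26.3%, 24.5% and 10.7%. At a limma adjusted p under 0.05, 3 were higher in DSS_WT than in Naive_WT, against 5.71% of all tested probes higher. In DSS_KO 1 was lower than in DSS_WT, against 3.17% lower, and 1 was higher than in Naive_KO, against 9.42% in either direction. With 1 sample left out the count of calls stayed at 0 except for 1 with DSS in WT, without DSS_WT sample 1 or without Naive_KO sample 13, and it was also 1 there with 4R and 5R kept as samples of their own. Their mean log2 level was 4.91 to 5.12 in Naive_WT, 4.98 to 5.22 in Naive_KO, 5.15 to 5.39 in DSS_WT and 5.22 to 5.26 in DSS_KO.

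Lck, the kinase that starts T cell receptor signalling, was detected on all 18 arrays and rose with DSS in WT by 0.56 (limma adjusted p = 0.0392). Cd4 was detected on 4 of 18 arrays, all of them DSS, and Cd8b1, the second CD8 chain, on 2. No comparison of groups passed for Cd4 (lowest limma adjusted p = 0.160), and Tbx21, the factor that drives interferon-gamma production in T cells, was detected on no array.

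Of 32 further cytotoxic and NK cell genes, 18 were detected on no array, among them Ncr1 and Klrk1, and 9 were tested. With DSS, 3 were called higher in WT and 4 in Mbd2KO, against 1.74% and 1.72% of all tested probes called in either direction. None was called by limma between the genotypes, with 1 at an unadjusted p under 0.05 both with and without DSS. Those called were Fcer1g, Tyrobp and Srgn in both, and Prf1 in Mbd2KO. Fcer1g and Tyrobp are signalling adaptors and Srgn is a granule proteoglycan, and myeloid cells carry all 3 as well.

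Prf1, which codes for the pore-forming protein perforin, was detected on all 18 arrays by 1 probe and on none by the other. By the first probe it gave 1.39 with DSS in Mbd2KO (SE 0.20, limma adjusted p = 0.000669), 0.62 in WT (adjusted p = 0.0603) and 0.23 between the genotypes with DSS (adjusted p = 0.556). The probes of Prf1 disagree, and which of them reads the transcript was not tested.

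CD45 itself (Ptprc), which the sort selects against, was detected on 3, 0 and 0 of 18 arrays by its 3 probes. Of 22 pan-leukocyte genes, however, 10 were detected on every array and 17 were tested. With DSS, 6 were called higher in WT and 4 in Mbd2KO, against 1.74% and 1.72% of all tested probes called in either direction. Among them were Coro1a (1.53 and 1.34) and Arhgdib (1.39 and 1.42). With 1 sample left out the calls ran from 3 to 6 in WT (3 without DSS_WT sample 3 or 4 or Naive_WT sample 10 or 12) and from 1 to 6 in Mbd2KO (1 without DSS_KO sample 5 or 8 or Naive_KO sample 16, and 2 without Naive_KO sample 14). None was called between the genotypes by limma, but at an adjusted p under 0.05, 4 were higher (Lcp1, Ptpn6, Hcls1 and Vav1) and 1 lower (Cytip) in Naive_KO than in Naive_WT, and 1 was higher (Ptpn6) in DSS_KO than in DSS_WT, with 6 at an unadjusted p under 0.05 in each. Of all tested probes 5.19% and 5.63% passed this adjusted p in either direction, and 22.8% and 22.2% the unadjusted one. Their mean log2 level was 5.55 to 5.75 in Naive_WT, 5.63 to 6.09 in Naive_KO, 6.04 to 6.56 in DSS_WT and 6.37 to 6.55 in DSS_KO, and the sum of their linear levels was 1621 to 2126, 1722 to 2983, 2714 to 5038 and 3954 to 4684. The list levels moved with DSS in the same direction as Cd3d, Cd3g and Itgae, and their part in those results was not tested.

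Macrophage and monocyte genes were called higher with DSS in both genotypes. Of 19 such genes, 13 were tested and 4 were detected on no array. With DSS, 11 were called higher in WT and 6 in Mbd2KO, against 1.74% and 1.72% of all tested probes called in either direction. With 1 sample left out the calls ran from 7 to 11 in WT (7 without DSS_WT sample 3 or Naive_WT sample 12) and from 2 to 8 in Mbd2KO (2 without DSS_KO sample 5, 6 or 8 or Naive_KO sample 14 or 16). Between the genotypes none was called by limma, but 9 of 13 had an unadjusted p under 0.05 without DSS, against 22.8% of all tested probes, with a median log2 difference of 0.67, and 1 (Csf1r) passed an adjusted p under 0.05. With DSS 2 of 13 had an unadjusted p under 0.05, with a median of 0.36. Adgre1, which codes for the F4/80 that the sort selects against, was detected on 14 of 18 arrays and rose by 1.51 in WT (limma adjusted p = 0.00253) and 1.13 in Mbd2KO (adjusted p = 0.0162), and C1qb, a complement component, by 2.10 and 1.78. The mean log2 level of the list was 5.70 to 6.28 in Naive_WT, 5.98 to 6.67 in Naive_KO, 6.76 to 7.27 in DSS_WT and 7.10 to 7.20 in DSS_KO, with sums of linear levels of 2241 to 3662, 2644 to 6145, 5286 to 9750 and 9164 to 10625. Their part in the differences of the members and of the response genes was not tested. 

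B and plasma cell genes gave no call in any comparison (13 with a probe and 6 tested, with 1, 2, 2, 0 and 0 at an unadjusted p under 0.05 by limma in the order given for T cell genes). The epithelial identity of the samples was plain, since all 15 epithelial genes listed were detected on every array, Epcam among them, and none was called by limma (3, 5, 4, 1 and 2 at an unadjusted p under 0.05 in the order above). Their mean log2 level lay between 12.3 and 12.5 in all samples. Mbd2 had 1 probe, which was detected on 0 of 18 arrays, so it gives no check of the genotype labels. The arrays detected 41.6% to 45.5% of all probes. The mean of their negative controls was 101 to 111 in the naive and 103 to 134 in the DSS arrays, so uncorrected signals of dim probes are higher with DSS. Without background correction the differences with DSS in WT were 0.06 to 0.32 for the 6 tested member genes, against 0.17 to 0.71 with it.

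The receiving end of the pathway was detected throughout. Ifngr1 and Ifngr2, the receptor chains for interferon-gamma, were detected on all 18 arrays. Ifngr1 gave differences of -0.34 to 0.04 over the 4 comparisons of groups, none of which passed. The brightest of the 3 Ifngr2 probes rose with DSS in Mbd2KO by 0.66 (limma adjusted p = 0.0139), and the other 2 gave -0.20 and -0.23 there. With DSS in WT these 2 were lower by the looser threshold (-0.66 and -0.59, adjusted p = 0.0113 and 0.0201), while the first gave 0.17, so the probes disagree. Of 9 interferon receptor and kinase genes, 8 were detected on every array and none was called by limma, with 1, 2, 2, 1 and 3 at an unadjusted p under 0.05.

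Detection of other interferon genes was mixed. Of 16 further interferon genes with a probe, 10 were detected on no array, Ifnb1 among them, 2 were detected on every array, and 3 were tested, none of which passed an adjusted p under 0.05 by limma (0, 1, 0, 0 and 0 at an unadjusted p under 0.05). The mean log2 level of the list lay between 4.72 and 4.88 in all samples. Of 26 genes that induce interferon-gamma or guide lymphocytes to the gut, 14 were tested. Between the genotypes none was called by limma, with 6 at an unadjusted p under 0.05 with DSS and 4 without, against 22.2% and 22.8% of all tested probes. With DSS, 1 passed the looser threshold, Il18, a cytokine that induces interferon-gamma, which was lower in Mbd2KO at -0.87 by its brightest probe (adjusted p = 0.0490), while its second probe gave -0.24 (0.515). With DSS, Ccl5, a chemokine of T cells and macrophages, was called in WT (1.58) and Mbd2KO (1.63), and Itgb7, the beta chain that pairs with CD103, was called in WT (1.18, limma adjusted p = 0.00216). With 1 sample left out, the number called with DSS ran from 1 to 2 in WT (1 without DSS_WT sample 2, 3 or 4 or Naive_WT sample 9, 10 or 12) and from 0 to 2 in Mbd2KO (0 without DSS_KO sample 5, 6 or 8 or Naive_KO sample 14, 15 or 16).

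The genes whose log2 levels ran most like those of a member over the 16 samples were searched among 15751 others, as a description that includes the differences between groups. Cd3g ran with Dnmt3l (Pearson r = 0.908) and Csf2rb2 (0.907), and Cd3d with H2-Oa (0.911), Irf5 (0.904) and Gask1b (0.881). Itgae ran with Retnlb (0.916), Hgh1 (0.897) and Lrrk1 (0.893), and Ifng with Cd6 (0.886), Nub1 (0.860) and Adgrf3 (0.855). For Klrd1 they were Ppp2r1b (0.881), LOC100046895 (0.841) and Arhgef15 (0.832), and for Nkg7 Tmem158 (0.847), Clec4a3 (0.838) and Rrp1b (0.825). All points share arrays and background correction, and several of these neighbours were themselves detected on fewer than 13 of 18 arrays.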

How the data were processed

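The deposited table holds, for each probe and array, a mean bead signal, which the authors exported from the scanner software as linear intensity without normalization or background subtraction, and a detection p-value, also deposited. Bead numbers and bead errors (36 columns of the deposited table, of other kinds) were used only for description. The submitters' processing notes name lumi and limma; versions are not given in the sources used here.

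Signals of 45281 probes and 974 control probes (936 negative controls) went through neqc (offset 16, limma 3.58.1, R 4.3.3), which subtracts background estimated from the negative controls, applies quantile normalization and takes log2. Probes with a detection p under 0.05 on at least 4 of 18 arrays were tested (21938). Arrays 4R and 5R differed less from arrays 4 and 5 than any other pair of their group did, and each pair was averaged, which gave 16 samples. A limma model with a mean per group (12 residual and 4.71 prior degrees of freedom) gave 5 contrasts, with Benjamini-Hochberg adjustment over all tested probes within each. P-values of single probes are limma's and two-sided. Whether every pool was from separate mice is not stated, so p-values measure the spread between these samples only. The model was tested on simulated data. The number of arrays limits the precision.

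The members and the gene lists were chosen with earlier results of these data known. Named beside the 10 members were, from the lists, called genes (at most 4 for each list and contrast, by size), Ptprc, Epcam, Prf1, Cd4, Cd8b1, Lck, Tbx21, Ifngr1, Ifngr2, Irf1, Ciita, Cxcl9 and Cxcl10, and the 3 most correlated genes of each tested member. Adgre1, Ncr1, Klrk1, Ifnb1, Il18, Csf1r, Lcp1, Ptpn6, Hcls1, Vav1 and Cytip were added after their values were seen. Some genes that this rule names are not reported here. Where a gene had several probes, its value is that of the tested probe with the highest mean. Symbols were updated through a RefSeq gene table (GRCm38.p6), used for names only, which matched 29586 probes. Alternatives were no background correction, scaling to the median, an offset of 50, other detection filters, other uses of the repeat arrays, fits on the groups of a contrast alone and leaving out each sample. For the macrophage and the interferon-gamma inducing lists these were added after seeing the data.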

Additional observations from a re-analysis of the deposited data

Results flagged for a closer look

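In 5 of 68 groups of 4 samples (17 probes in 4 groups), 1 sample lay farther from the others than Dixon's limit allows. Chance alone flags about 1 in 20 groups. In Naive_WT, sample 10 was high for Cd3g (4.74, next 4.50) and low for Cd8a by ILMN_2731282 (4.27, next 4.42), and sample 9 was high for Cd8a by ILMN_2935080 (4.61, next 4.45) and low for Itgae by ILMN_2699898 (5.61, next 6.15). In DSS_WT, sample 3 was high for Ifng by ILMN_2685712 (4.99, next 4.45). Apart from Itgae and that Ifng value, all were below detection.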

How the results depend on the processing

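No paired analysis was possible because the groups share no replicate number. A fit with the chip as a block was not run, since the file names no chip. No member probe was called under any alternative. With detection p under 0.01, 51 of the 306 pairs of member probe and array were detected, against 108. The member probes with an adjusted p under 0.05 in DSS_KO against DSS_WT (2) became 0 without background correction, with an offset of 50, with the filter at a detection p under 0.01 and with only the groups of the contrast in the fit, 1 with no filter and without arrays 4R and 5R, and 0 to 2 when 1 sample was left out. In DSS_WT against Naive_WT (3) they became 5 with scaling to a common median and with the 18 arrays kept separate, 1 with the stricter filter and 1 to 6 when 1 sample was left out (6 without DSS_WT 1, and 1 without DSS_WT 2, 3 or 4 or Naive_WT 12). In DSS_KO against Naive_KO (0) they became 1 with median scaling and without 4R and 5R, and 0 to 1 when 1 sample was left out, as in Naive_KO against Naive_WT (0, and 1 without Naive_KO 16). The cause of these shifts was not tested.

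Some differences close to 0, none past a threshold, changed sign. Without 4R and 5R, Cd3d gave 0.025 for DSS_KO against DSS_WT and 0.024 for the interaction. With median scaling, Itgae gave -0.035 for DSS_KO against DSS_WT and Klrd1 -0.013 for DSS_KO against Naive_KO, and with 18 arrays kept separate Itgae gave -0.0035. With 1 sample left out, the values ran from -0.17 to 0.038 for Cd3d in DSS_KO against DSS_WT, from -0.17 to 0.037 for Cd3d in the interaction, from -0.10 to 0.064 for Cd3d and from -0.048 to 0.10 for Nkg7 in Naive_KO against Naive_WT, from -0.081 to 0.13 for Itgae in DSS_KO against DSS_WT, and from -0.18 to 0.12 for Ifng in the interaction. Low signal over background limits every member but Itgae, and a probe under detection can hide a change of any size below it.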
